A study of Mus musculus with 19 samples.

Results

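The mouse left ventricle was compared at day 28 with day 10 of a cardiomyopathy that tamoxifen brings on and that then recedes. The comparison took every sample titled as tamoxifen day 28 (4 arrays) against every sample titled as tamoxifen day 10 (3 arrays), which is 7 of the 19 arrays of the series. Both groups were male C57Bl6/J MerCreMer mice given as 12 to 20 weeks of age, in whose heart muscle cells a cardiac myosin heavy chain promoter drives Cre recombinase joined to a mutant form of the estrogen receptor. Day 28 mice had 5 days of tamoxifen free base (1.0 mg, 40 mg/kg, injected daily into the peritoneum in peanut oil) and then 23 days of normal diet. Day 10 mice had the same 5 days of tamoxifen and then 5 days of normal diet. A control group of 5 arrays, labelled non-failing, is used here as the baseline; its labels say nothing of a vehicle injection. The remaining arrays are 4 from day 2 and 3 from day 3 of tamoxifen. All groups carry the transgene as labelled, so the design holds no mice without Cre. Day 28 and day 10 mice had the same tamoxifen course but differ in the time since it, 23 and 5 days of normal diet. Time since tamoxifen and recovery cannot be told apart in this design. The series places the worst heart function at day 10 and recovery at 4 weeks, and the comparison asks what the ventricular transcriptome looks like on the far side of that recovery.

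Tamoxifen binds the mutated receptor and lets the fused Cre enter the nucleus of cardiomyocytes, where it can cut DNA. A failing ventricle is known to burn less fat, to make natriuretic peptides in response to wall stress, to lay down collagen and to take up macrophages that clear debris and drive repair. Adult cardiomyocytes normally cover most of their energy need from fatty acids, through beta-oxidation, the tricarboxylic acid cycle and the respiratory chain. Which of these programmes stand apart at day 28 from day 10, and which do not, is described below by gene role.

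RNA from whole left ventricle was hybridised to Illumina bead arrays, 1 per sample, and each value below is a log2 intensity after background correction. A probe's level can be compared between arrays but not with another probe's. Probes were called with limma at a Benjamini-Hochberg adjusted p under 0.05. The labels do not say that replicates are separate mice, so the p-values measure the spread between these samples. Of 19273 probes tested, 2893 were called higher and 2898 lower at day 28 than at day 10, which is 30.0% of all probes. The difference reached 2-fold for 761 of the higher and 847 of the lower probes, and 4-fold for 76 and 155. With 1 probe per gene, 31.6% of 12939 genes were called, 16.2% higher and 15.3% lower, and the median difference over all genes was 0.02. These shares are the background against which each gene list below is read. Arrays within day 28 and within day 10 correlated at 0.984 to 0.988. Day 10 array 3 lay nearest to the day 28 arrays, at 0.945 to 0.949, against 0.922 to 0.929 for day 10 array 1.

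Against the control arrays, 1.8% of probes (347) were called at day 28, 1.11% higher and 0.69% lower, and 35.8% (6894) at day 10, and these 2 comparisons share the controls. The count at day 28 moved with single arrays, between 105 without day 28 array 3 and 772 without control 5, and it was 39 against controls 4 and 5 alone and 1874 against controls 1 to 3 alone. On the first principal component, which held 40.1% of the variance, day 28 arrays lay at -16.68 to -9.37, day 10 arrays at 54.3 to 72.7 and controls at -33.04 to -18.08. The controls split on the second component, where controls 4 and 5 (20.5 and 20.1) lay beside day 28 (21.1 to 23.1) and day 10 (19.7 to 24.1), while controls 1 to 3 lay at 1.59 to 4.38. No label names a batch, and the part of this split in the control comparisons was not tested. No control enters the difference between day 28 and day 10, but all groups share the estimate of the spread, and a fit of those 7 arrays alone called 6417 probes.

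The plot of list shares sets out the result by gene group. Lists of macrophage, cell cycle, collagen, proteasome, ribosome and cholesterol genes lay to the lower side at day 28, and lists of fat oxidation, respiration, ion channel and endothelial genes lay to the higher side.

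**Figure D1:**
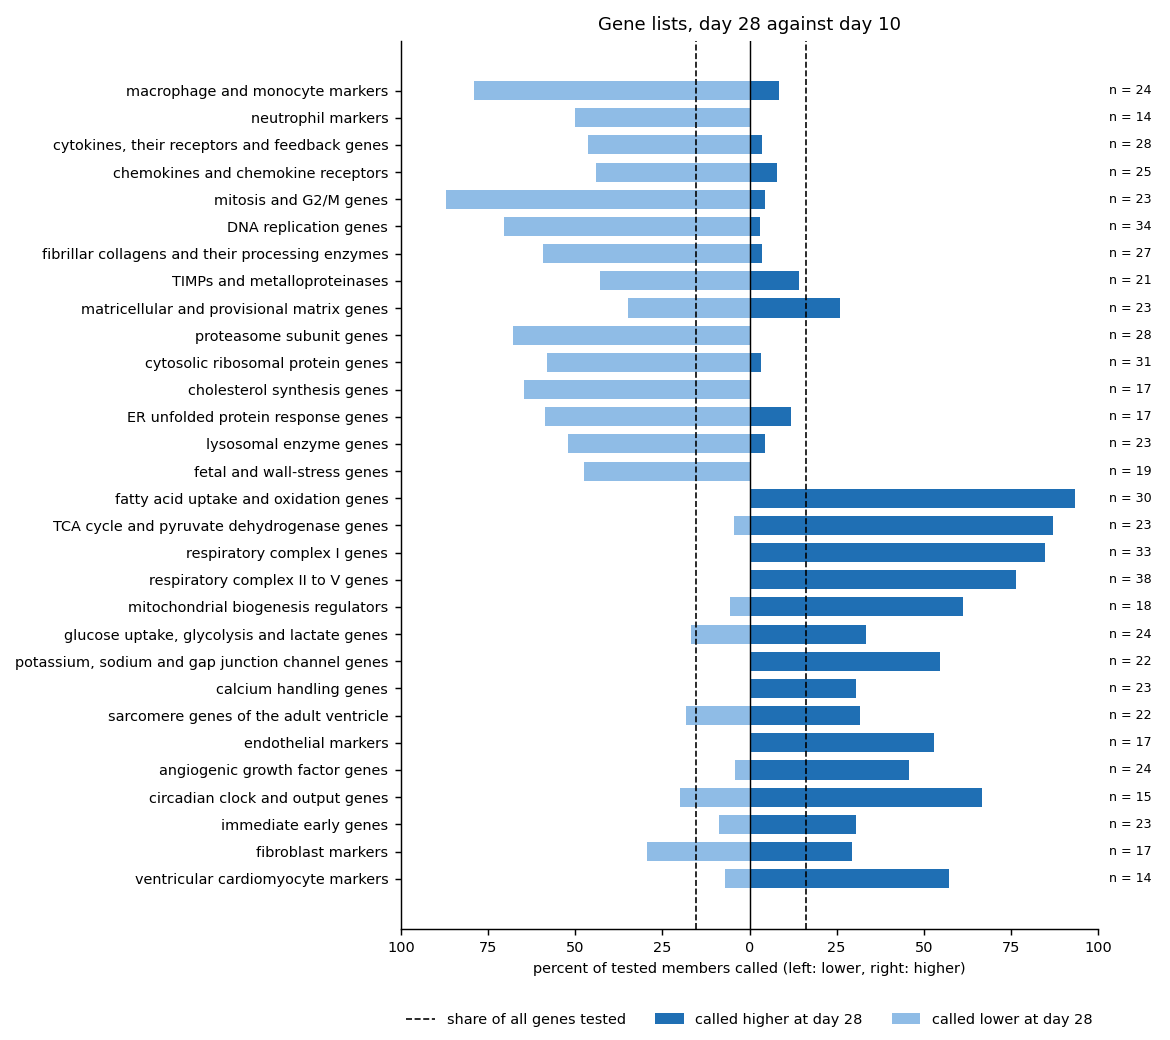
Percent of tested members of drawn gene lists called higher (dark bars, right) or lower (light bars, left) at day 28 than at day 10. The number of members tested is at the right edge. The lists drawn are a chosen part of the 48 examined. Those not drawn include lists near the dashed lines (antigen presentation, p53 targets) and lists far from them (muscle atrophy and autophagy). Dashed lines mark the shares over all 12939 genes, 16.2% higher and 15.3% lower; 28 of 30 fatty acid genes were called higher. Only members that passed the intensity filter are counted, which for mitosis genes is 23 of 35 on the array.

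Macrophage genes fell furthest. Of 24 macrophage and monocyte markers tested, 19 were called lower and 2 higher at day 28, with a median of -1.98. Arg1, which encodes an arginine-splitting enzyme of repair-type macrophages, read 5.71, 5.78, 6.09 and 6.09 on the day 28 arrays, against 11.86, 11.15 and 11.37 at day 10. All day 28 arrays were at or near the floor of the scale, where the lowest value of any probe is 5.67, and the groups did not overlap. The difference was -5.54 ± 0.41 (SE), a 46.7-fold fall (adjusted p = 8.58e-10). Lgals3, which encodes the sugar-binding galectin-3, read 8.84, 9.30, 9.48 and 9.28 at day 28, against 13.85, 13.54 and 12.99 at day 10. Its levels at day 28 lay within or close to the control range of 8.32 to 9.82, an 18.8-fold fall (adjusted p = 1.95e-09). Chil3, a chitinase-like protein secreted by activated macrophages, fell 35.0-fold, and the phagocytic receptor gene Trem2 fell 6.21-fold (adjusted p = 8.49e-08 and 2.13e-09). Ms4a6d and Sirpb1a, both membrane protein genes of myeloid cells, fell 15.8-fold and 14.1-fold. The T cell and myeloid surface gene Cd52 fell 8.74-fold, and the adhesion gene Emb 9.06-fold.

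Retnla and Timd4 went the other way. Retnla, a secreted resistin-like protein gene, was higher at day 28 by 1.19, with 8.67, 7.25, 7.72 and 7.97, against 6.53, 6.55 and 7.06 at day 10. Timd4, a receptor for dying cells that marks long-resident macrophages, was higher by 0.51, a call lost without day 10 array 3 (adjusted p = 0.0814). The resident macrophage genes Cd163 and Folr2 gave differences of 0.09 and -0.09 that passed no test (adjusted p = 0.871 and 0.861). Other genes linked to resident macrophages in the same list were called lower, Mrc1 by 1.91, Mertk by 0.62 and Lyve1 by 0.56 (adjusted p = 1.27e-07, 0.00387 and 0.0364). The summed intensity of the 24 markers ran from 24630 to 29820 at day 28, from 94000 to 130500 at day 10 and from 14210 to 32880 in controls. In whole tissue, fewer cells of a type and less RNA per cell cannot be told apart.

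Neutrophil markers were lower too. Of 14 tested, 7 were called lower and none higher. Il1r2, a decoy receptor for interleukin 1, read 6.24, 6.11, 6.49 and 6.16 at day 28, against 9.10, 8.78 and 7.95 at day 10, without overlap (5.14-fold fall, adjusted p = 1.58e-08). The chemokine receptor gene Cxcr2 fell by 1.25, and Clec4e, a sensor of microbes and dying cells, fell by 1.97. Of 11 T, B and natural killer cell markers, 1 was called lower and 1 higher, close to the background share. Their summed intensity was 1223 to 1332 at day 28 and 1226 to 1272 at day 10. Their mean log2 level, 6.76 to 6.88 and 6.79 to 6.81, was near the median of all probes, 6.83. At such dim levels the like sums say little about these cells.

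Among secreted immune signals, 11 of 25 chemokine and chemokine receptor genes were called lower and 2 higher, and 13 of 28 cytokine genes lower and 1 higher. Ccl6 and Ccl9, chemokine genes of myeloid cells, fell 8.43-fold and 9.49-fold. Lcn2, an iron-trapping protein gene of neutrophils and stressed tissue, read 7.29, 7.24, 7.38 and 7.29 at day 28, against 11.97, 12.03 and 10.99 at day 10. Its day 28 arrays lay close together, and the fall was 20.6-fold (adjusted p = 1.06e-08). Cxcl9, an interferon-gamma-induced chemokine gene, instead rose by 1.59 (adjusted p = 0.000145). Complement genes went both ways. The 3 chains of C1q, the recognition unit made largely by macrophages, fell by 1.30 (C1qa), 1.86 (C1qb) and 1.57 (C1qc), while the complement inhibitor genes Serping1, Cd55 and Cd59a rose by 1.45, 0.75 and 0.68. C1s1, a protease of the activating cascade, rose too, by 0.64 (adjusted p = 0.00454). Over the whole complement list 6 of 15 were called lower and 4 higher, with 3 lower under a stricter intensity filter that leaves fewer genes to test. Antigen presentation genes were nearer the background, with 3 of 18 lower (1 without day 10 array 1) and 2 higher, and Tap2, a peptide transporter gene, rose by 1.41. Interferon-stimulated genes were called lower in 7 of 24 and higher in 1. That count depended on single arrays: it was 14 without day 10 array 2, and 4 without day 10 array 1 or without day 28 array 1. Day 10 array 1 was the high one for Oasl2, an antiviral gene of this list, at 11.52 against 9.40 and 10.20 on the other day 10 arrays.

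**Figure D2:**
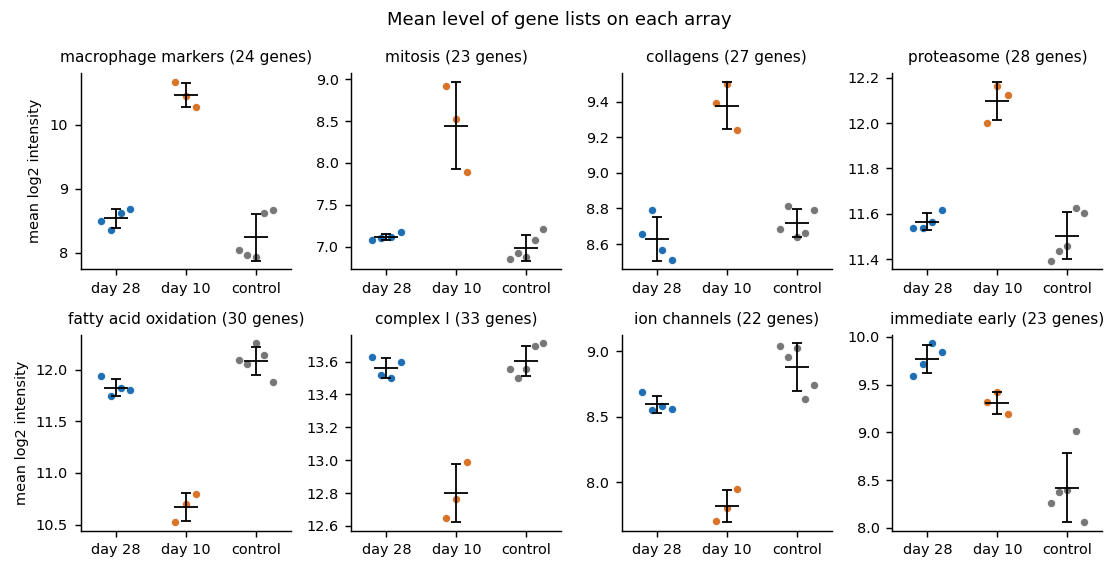
Mean log2 intensity over the tested members of 8 gene lists on each array (points), with the group mean and SD (black), for day 28 (4 arrays), day 10 (3 arrays) and control (5 arrays). Macrophage markers lay at 8.35 to 8.69 at day 28 and 10.28 to 10.66 at day 10, and immediate early genes were highest at day 28 among these 3 groups.

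Single matrix genes went both ways, but the summed intensity of the matrix lists was lower at day 28. For collagen genes it was 16210 to 21770 at day 28, against 32180 to 41800 at day 10. For matricellular genes it was 60480 to 86030, against 89790 to 95260. For metalloproteinases and their inhibitors it was 14480 to 18770, against 27860 to 35780. Timp1, which encodes an inhibitor of metalloproteinases, had the largest fall of any named gene, at 8.06, 8.23, 8.55 and 8.18 on the day 28 arrays, against 14.38, 14.47 and 13.99 at day 10. The groups were separated by more than 5 log2 units, and every day 28 array was still above the highest control, 8.01. Its difference was -6.03 ± 0.50 (SE), a 65.1-fold fall (adjusted p = 3.75e-09), and the difference from control was not called (0.54, adjusted p = 0.607). Timp2 and Timp3, inhibitors that the healthy heart also makes, instead rose by 1.11 and 1.26. Mmp2, a gelatin-digesting metalloproteinase gene, rose by 1.73, while Mmp14, which encodes an activator of that same enzyme, fell by 1.44. In that list of 21 genes, 9 were called lower and 3 higher.

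Of 27 genes for fibrillar collagens and their processing enzymes, 16 were called lower and 1 higher, with a median of -0.62. Col1a1, the main chain of scar collagen, read 9.14, 9.36, 8.91 and 8.42 at day 28, against 11.22, 11.58 and 10.77 at day 10. Levels at day 28 were spread around the control range of 8.82 to 9.54, and the fall was 4.71-fold (adjusted p = 2.69e-07). Col3a1 fell 3.47-fold and Col5a1 3.51-fold. The crosslinking enzyme gene Lox fell 14.2-fold and Loxl2 2.83-fold (adjusted p = 5.77e-08 and 1.13e-06). The 1 gene called higher was P4ha1, a collagen hydroxylase subunit gene, by 0.65, and that call was lost without day 10 array 2 (adjusted p = 0.0899).

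Matricellular and provisional matrix genes went both ways, with 8 of 23 called lower and 6 higher. Tnc, a glycoprotein gene of wounds and embryos, read 6.43, 7.03, 6.54 and 6.68 at day 28, against 11.87, 11.87 and 11.43 at day 10, a 33.1-fold fall (adjusted p = 1.75e-08). Its day 28 arrays lay within the control range of 6.43 to 7.09, and 4 of its 5 probes were called. Ccn4, Sparc and Emilin1 fell by 2.15, 1.22 and 1.24. On the other side Fbln1, an elastic fibre protein gene, read 11.11, 12.23, 12.37 and 12.33 at day 28, against 8.76, 8.92 and 9.18 at day 10. Day 28 array 1 was the low one of its group, yet lay far above every day 10 array, and the rise was 8.30-fold (adjusted p = 3.25e-10). Tnxb and Vtn rose by 2.31 and 1.54, and Dcn, which coats collagen fibrils, rose by 0.72.

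Of 17 fibroblast markers, 5 were called higher and 5 lower. Their summed intensity was 43380 to 55910 at day 28 and 39400 to 47330 at day 10. That sum leans on Dcn, the brightest member, at 15.09 and 14.37. The mean log2 level of the list leaned the other way, at 9.38 to 9.75 and 9.61 to 9.87. Pi16 and Dpt, genes of quiescent fibroblasts, rose by 1.74 and 1.21, while Meox1, a transcription factor gene of activated fibroblasts, fell by 1.39. Fap, a protease gene also linked to activated fibroblasts, rose by 0.54 (adjusted p = 0.0016), and Mfap5, a microfibril gene, fell by 1.82. Gsn, an actin-severing protein gene, read 9.47, 9.60, 9.99 and 7.51 at day 28, against 6.88, 7.34 and 7.70 at day 10, so its last day 28 array overlapped day 10. Of 24 genes of the transforming growth factor beta family, 6 were called lower and 5 higher. Tgfbi, a matrix protein gene induced by that growth factor, read 10.37, 10.93, 10.88 and 10.88 at day 28, against 13.23, 12.95 and 12.88 at day 10, a 4.77-fold fall. Inhba and Tgfb2, both ligand genes, fell by 1.64 and 0.80, and Bmp4 rose by 0.99. The higher count fell to 3 without day 28 array 3 or 4 or without day 10 array 1 or 2.

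**Figure D3:**
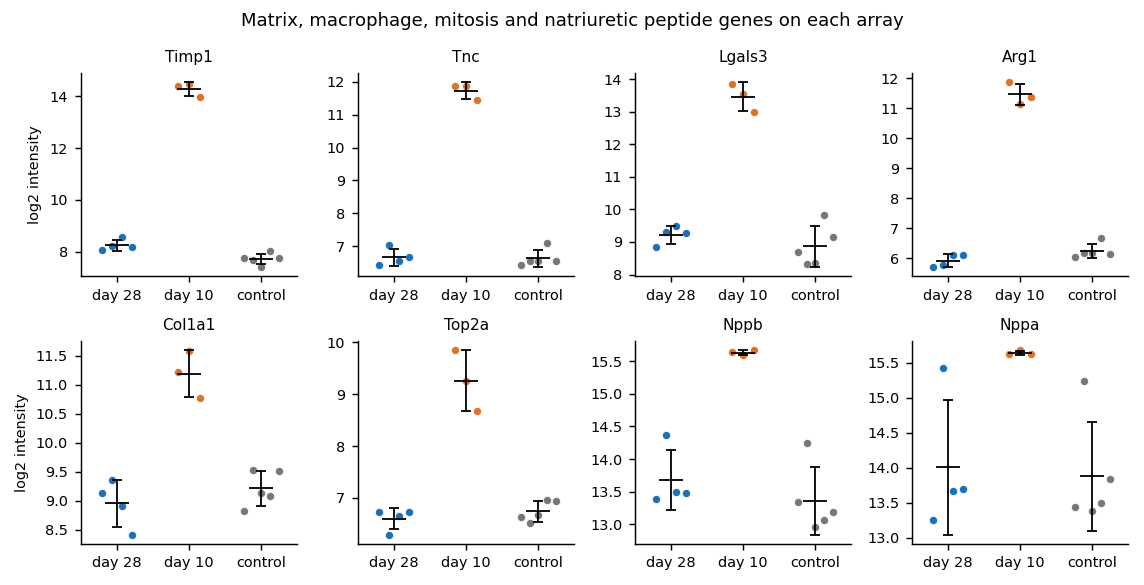
Log2 intensity on each array (points), with group mean and SD (black), of 2 matrix genes and collagen I (Timp1, Tnc, Col1a1), 2 macrophage genes (Lgals3, Arg1), the mitosis gene Top2a and the natriuretic peptide genes Nppb and Nppa. Day 28 and day 10 arrays do not overlap for any of the 8, which were picked from genes called lower. Day 28 array 2 lies above the other day 28 arrays for both peptide genes.

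Many genes of dividing cells were lower at day 28. With no filter on dim probes, 20 of the 35 mitosis and G2/M genes on the array were called lower and 1 higher, with a median of -0.86, and 24 of 36 DNA replication genes were called lower and 1 higher, with a median of -0.80. Over all 16593 genes of that fit, 11.5% were called lower and 12.3% higher. The intensity filter left 23 of the 35 mitosis genes, since a gene that is dim at day 28 and in control passes it only through groups where it is brighter. The shares of tested members are therefore no measure of the whole list. Top2a, which untangles DNA before cell division, read 6.72, 6.29, 6.65 and 6.73 at day 28, against 9.85, 9.26 and 8.67 at day 10. Its day 28 arrays were all under the median of all probes, 6.83, and within or below the control range of 6.51 to 6.96 (6.31-fold fall, adjusted p = 7.71e-10). Cdk1, the kinase that drives entry into mitosis, fell 5.99-fold, and Prc1, which bundles the midzone of the spindle, fell 6.72-fold. Both were highest on day 10 array 1 and lowest on day 10 array 3, as was Top2a. For Prc1 the 3 day 10 arrays read 10.90, 10.30 and 9.14, against 6.93 to 7.64 at day 28. Mcm5, a subunit of the replicative helicase, read 7.58, 7.82, 7.79 and 7.59 at day 28, against 10.28, 9.77 and 9.60 at day 10, a 4.57-fold fall. Uhrf1, which keeps DNA methylation through replication, fell 6.25-fold, and the thymidylate synthase gene Tyms 4.39-fold. Cenpa, a centromere histone gene, and Dut, which clears dUTP, were the exceptions, higher by 0.88 and 0.64.

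Promoters of 4 of these genes are shown to set out the short elements known upstream of cell cycle genes, which differed in frequency between the mitosis and replication lists. The 200 bases before the annotated start are given 5′ to 3′ on the gene's strand, from RefSeq on GRCm38.p6. Capitals mark the cell cycle homology element TTTGAA and the CCAAT box in Top2a, Cdk1 and Prc1, on either strand. In Mcm5 they mark the letters TTTGGCGC and TTTCGCGC, forms of the E2F site. Other matches are left in small letters, such as CCAAT in Mcm5 and TTTCGCGC in Cdk1.
Top2a promoter, chr11:99024190-99024389, minus strand: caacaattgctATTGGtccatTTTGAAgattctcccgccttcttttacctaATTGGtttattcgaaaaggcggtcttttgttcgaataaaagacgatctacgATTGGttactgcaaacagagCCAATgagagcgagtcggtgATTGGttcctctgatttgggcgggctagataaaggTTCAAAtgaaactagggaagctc
Cdk1 promoter, chr10:69352913-69353112, minus strand: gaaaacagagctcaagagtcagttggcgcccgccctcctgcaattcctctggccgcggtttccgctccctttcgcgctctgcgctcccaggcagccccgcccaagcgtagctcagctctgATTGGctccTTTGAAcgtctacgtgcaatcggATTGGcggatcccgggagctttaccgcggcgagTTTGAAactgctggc
Prc1 promoter, chr7:80294276-80294475, plus strand: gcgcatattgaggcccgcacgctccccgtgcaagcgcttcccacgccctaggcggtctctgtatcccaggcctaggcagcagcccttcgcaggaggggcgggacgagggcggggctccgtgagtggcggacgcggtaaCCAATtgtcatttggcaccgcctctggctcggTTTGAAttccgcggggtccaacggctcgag
Mcm5 promoter, chr8:75109309-75109508, plus strand: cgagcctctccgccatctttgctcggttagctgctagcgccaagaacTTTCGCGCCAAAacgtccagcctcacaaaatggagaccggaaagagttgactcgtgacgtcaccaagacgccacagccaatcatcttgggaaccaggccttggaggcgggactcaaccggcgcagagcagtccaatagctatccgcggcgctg
The Top2a window held 2 TTTGAA and 5 CCAAT matches, Cdk1 had 2 and 2, and Prc1 had 1 and 1, none of them overlapping. In Mcm5 the 2 E2F forms overlap and make 1 stretch. Over windows from 250 bases before to 50 after the start, 73.5% of 34 mitosis genes (25) held TTTGAA, against 12.1% of 33 replication genes and 20.2% of all 27025 genes with a promoter. CCAAT was present for 79.4% of the mitosis genes, 57.6% of the replication genes and 41.1% of all genes. For TTTGGCGC the shares were 15.2% of replication genes, 0% of mitosis genes and 0.585% of all genes, and for TTTCGCGC 21.2%, 2.94% and 0.374%. A match describes the letters in the window and shows no binding.

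Fat oxidation genes gave the most uniform rise. Of 30 genes of fatty acid uptake and oxidation tested, 28 were called higher at day 28 and none lower, with a median of 1.13. Cpt1b, which commits fatty acids to the mitochondrion, read 13.06, 12.75, 12.70 and 12.82 at day 28, against 10.48, 11.01 and 11.12 at day 10. Every day 28 array lay more than 1.5 log2 units above every day 10 array. The first 4 controls, at 13.48, 13.52, 13.50 and 13.11, lay above every day 28 array. The last control did not and lay within the day 28 range. The rise was 3.90-fold (adjusted p = 8.67e-09), and the difference from control was not called (-0.44, adjusted p = 0.137). Cpt2, the partner enzyme on the inner membrane, rose 3.68-fold, Decr1, which prepares unsaturated fatty acids, 3.21-fold, and Mlycd, which removes the malonyl-CoA brake on import, 3.93-fold. Pdk4, a kinase that shuts pyruvate out of oxidation, rose by 0.79, a call lost without day 28 array 4 (adjusted p = 0.0777), without day 10 array 1 (0.0885) and without day 10 array 3 (0.0501). Ppara, the lipid-sensing receptor gene that many of these genes answer to, gave 0.16 and passed no test (adjusted p = 0.599); its probe lay near the median of all probes. The letters TCAAGGTCA, the site of estrogen-related receptors that act on such genes, were in the promoter window of 1 of 27 fatty acid genes (3.7%), 0 of 33 complex I genes, 2 of 30 genes of complexes II to V and 0 of 24 genes of the tricarboxylic acid cycle list, against 0.466% of all genes, searched on both strands.

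Downstream of beta-oxidation the rise went on. Of 23 genes of the tricarboxylic acid cycle and pyruvate dehydrogenase, 20 were called higher and 1 lower, with a median of 0.95. Dlat, the acetyl-transferring core of pyruvate dehydrogenase, read 11.16, 10.70, 11.11 and 11.18 at day 28, against 8.95, 8.99 and 9.17 at day 10, a rise of 4.00-fold (adjusted p = 3.33e-09). Idh3a and Mdh1 rose by 1.48 and 1.57. The pyruvate dehydrogenase kinases split: Pdk2 rose by 1.98, and Pdk3, the 1 gene called lower, fell by 1.04.

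Respiratory chain genes rose less per gene but nearly as widely. Of 33 complex I genes, 28 were called higher and none lower (median 0.70), and of 38 genes of complexes II to V, 29 were called higher and none lower (median 0.65). Ndufb10, a membrane-arm subunit gene of complex I, read 11.62, 11.48, 11.39 and 11.57 at day 28, against 9.47, 9.77 and 10.42 at day 10. Day 10 array 3 was the highest of its group here, as it was for Ndufa8, Sdhc and Cycs, and still lay below every day 28 array. Ndufb10 rose 3.09-fold and Cycs, cytochrome c, 3.17-fold (adjusted p = 9.21e-08 and 6.33e-07). Sdhb and Sdhc, subunits of complex II, rose by 1.06 and 1.24.

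Regulators of these programmes were called higher in 11 of 18 and lower in 1. Perm1, a muscle coactivator of mitochondrial genes, read 12.74, 12.66, 12.68 and 12.64 at day 28, against 9.55, 10.16 and 10.58 at day 10. Its day 28 arrays agreed to within 0.1, and the rise was 5.99-fold (adjusted p = 1.35e-08). Rxrg and Esrrb, both nuclear receptor genes, rose by 2.02 and 1.42, and Tfb2m, a mitochondrial transcription factor gene, by 0.89. Ppargc1a, the coactivator PGC-1 alpha, read 10.51, 11.05, 10.99 and 10.04 at day 28, against 9.00, 9.44 and 9.94 at day 10. Its rise of 1.19 passed the test (adjusted p = 0.0328) but the groups came within 0.1 of each other. That call was lost in 6 of 17 alternatives, with an adjusted p of 0.16 without day 10 array 1.

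Glucose handling was mixed, with 8 of 24 genes called higher and 4 lower. Slc2a4, the insulin-responsive glucose transporter GLUT4, read 11.06, 10.89, 10.85 and 10.59 at day 28, against 8.34, 8.55 and 8.94 at day 10 (4.72-fold, adjusted p = 9.76e-09). Pfkm and Pgam2, the muscle forms of their enzymes, and the regulator gene Pfkfb2 rose by 1.95, 1.40 and 2.32. Pfkl, the liver form of phosphofructokinase, also rose, by 0.45 (adjusted p = 0.0343), as did Tpi1, by 0.33 (adjusted p = 0.0245). The 4 genes called lower were Slc2a1 (GLUT1) by 1.04, Pgam1 by 1.10, Pfkp by 0.97 and Pkm by 0.73. Eno3, the muscle enolase gene, gave 0.64 and Aldoa 0.23, and neither was called (adjusted p = 0.0588 and 0.196). With a smaller background offset of 16 the higher count was 5. Creatine and adenylate kinase genes included Ckm, the muscle creatine kinase gene, which was higher by 1.35, and Ckb, the brain isoform gene, which was lower by 0.74. In the whole list of 10, 5 were called higher and 1 lower.

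**Figure D4:**
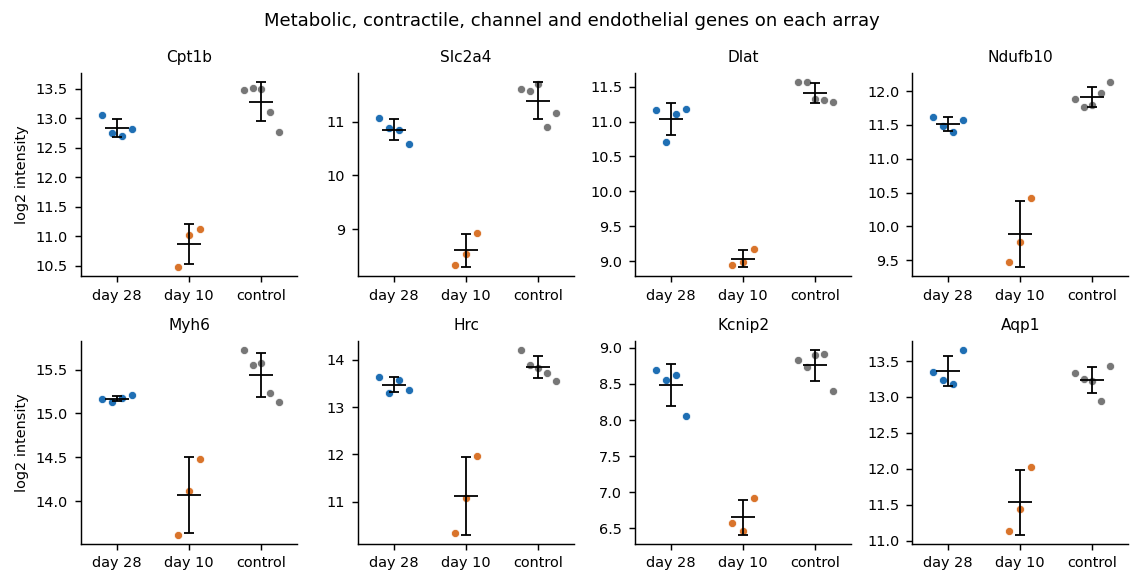
Log2 intensity on each array (points), with group mean and SD (black), of Cpt1b (fat import), Slc2a4 (glucose uptake), Dlat (pyruvate oxidation), Ndufb10 (complex I), Myh6 (contraction), Hrc (calcium store), Kcnip2 (potassium current) and Aqp1 (endothelial water channel). For all 8, picked from genes called higher, the 4 day 28 arrays lie above the 3 day 10 arrays. Day 10 arrays are the lowest of the 3 groups.

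Contractile genes did not move as a block. Of 22 sarcomere genes of the adult ventricle, 7 were called higher and 4 lower. Myh6, the fast cardiac myosin heavy chain gene whose family supplies the promoter of the transgene, read 15.16, 15.13, 15.18 and 15.21 at day 28, against 13.62, 14.12 and 14.48 at day 10 (2.14-fold, adjusted p = 1.17e-05). Day 28 arrays agreed closely, and day 10 arrays were spread over almost 0.9. Tnni3, Tcap and Myoz2, genes of the thin filament and the Z-disc, rose by 1.10, 1.59 and 1.16. The Z-disc and filament genes Csrp3, Des and Tpm1 fell by 0.59, 0.88 and 1.49. Myl2, the ventricular light chain gene, gave -0.13 and passed no test (adjusted p = 0.454), at 15.66 ± 0.08 at day 28 (n = 4) and 15.78 ± 0.03 at day 10 (SD, n = 3). That probe was near the top of the scale, 15.8, where a difference is compressed.

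Wall-stress and fetal genes were called lower in 9 of 19 and higher in none. Nppb, brain natriuretic peptide, read 13.39, 14.37, 13.49 and 13.48 at day 28, against 15.64, 15.60 and 15.67 at day 10. It fell 3.87-fold (adjusted p = 1.92e-06), with the day 10 arrays close to the top of the scale. Nppa, atrial natriuretic peptide, read 13.25, 15.42, 13.66 and 13.70 at day 28, against 15.63, 15.68 and 15.63 at day 10. Day 28 array 2 lay nearly as high as day 10, and control 2, at 15.24, stood out from its group in the same way; the fall was 3.11-fold (adjusted p = 0.00239). Atrial markers other than Nppa also varied within day 28 and control: Myl7 was at 9.01 ± 1.58 at day 28, 7.26 ± 0.61 at day 10 and 9.20 ± 1.75 in control (SD, n = 4, 3 and 5), and Sln at 8.51 ± 1.42, 6.69 ± 0.25 and 8.75 ± 1.26 in the same order. Of 14 atrial markers, 2 were called higher at day 28 than at day 10 and 1, Nppa, lower. Their mean log2 level, Nppa included, was lowest within day 28 on array 2 (7.74, with the highest at 8.36) and highest within control on control 2 (8.66), and their part in the Nppa values was not tested. Acta1, skeletal alpha-actin, and Myh7, the slow myosin heavy chain gene, are classic partners of these peptides but were not called (0.30 and 0.39, adjusted p = 0.667 and 0.545), and without day 28 array 2 the Acta1 difference was -0.04. Day 28 array 2 was also the high one of its group for both, at 14.32 for Acta1 and 8.56 for Myh7. Actn1 and Uchl1 fell 4.45-fold and 3.50-fold without overlap. Ankrd1, a stretch-responsive gene, fell by 0.51, a call lost when any of 5 arrays was left out (adjusted p = 0.0633 to 0.076).

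Tnnt1, the slow skeletal troponin T gene, read 9.57, 9.41, 9.53 and 9.52 at day 28, against 12.42, 12.84 and 13.53 at day 10, a 10.7-fold fall (adjusted p = 4.32e-09). Day 28 arrays sat within the control range of 9.13 to 9.90. The fast skeletal genes Tnni2 and Tnnt3 fell too, by 1.74 and 1.37, while Mylpf, a fast light chain gene, rose by 1.26. In that list of 13, 4 were called lower and 1 higher.

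Calcium handling and ion channel genes were called in the higher direction alone. Of 23 calcium genes 7 were called higher, and of 22 potassium, sodium and gap junction channel genes 12 were, with none lower in either list. Hrc, a calcium-binding protein gene of the sarcoplasmic reticulum, read 13.64, 13.30, 13.57 and 13.37 at day 28, against 10.33, 11.08 and 11.96 at day 10 (5.10-fold, adjusted p = 2.2e-07). Day 10 arrays differed from each other by up to 1.6, and even the highest lay below day 28. Atp2a2, the calcium pump SERCA2, rose by 0.75, and Tmem38a, a counter-ion channel gene of the same store, by 1.53. Pln, the brake on that pump, rose by 1.09, a call that missed the threshold without day 10 array 1 (adjusted p = 0.0536). Kcnip2, which sets the transient outward potassium current, read 8.69, 8.56, 8.62 and 8.06 at day 28, against 6.58, 6.46 and 6.92 at day 10, a 3.55-fold rise (adjusted p = 8.7e-08). Abcc9 and Abcc8, the sulfonylurea receptor subunits of ATP-sensitive potassium channels, rose by 1.77 and 1.36, and Kcnv2, a silent potassium channel subunit gene, by 1.70. Gja1, connexin 43 of the ventricular gap junction, gave -0.05 (adjusted p = 0.898).

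Genes of protein turnover and synthesis fell by modest amounts in large numbers. Of 28 proteasome subunit genes, 19 were called lower and none higher (median -0.53). Psma5 read 12.75, 12.81, 12.91 and 12.88 at day 28, against 14.18, 14.00 and 13.93 at day 10, a 2.30-fold fall (adjusted p = 9.92e-07), and Psmc4 fell by 1.03. Of 31 cytosolic ribosomal protein genes, 18 were called lower and 1 higher (median -0.57), with Rpl3 and Rpl12 lower by 1.16 and 0.93. Ribosomal protein probes can also read processed pseudogene copies, so single values there are uncertain. Of 23 lysosomal enzyme genes, 12 were called lower and 1 higher, led by Lgmn (4.63-fold), Ctss (3.80-fold) and Gusb (2.79-fold). Lgmn and Ctss are strongly expressed in macrophages, whose markers fell beside them, and that share was not tested.

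The endoplasmic reticulum stress list had 10 of 17 genes called lower and 2 higher. Its chaperone and folding genes Pdia4, Pdia6 and Creld2 fell by 1.36, 0.94 and 1.27, and the regulator Xbp1 by 1.02, while Herpud1, an adaptor of protein disposal, rose by 1.67 and Ddit3, the stress factor CHOP, by 1.01. Amino acid and ATF4 genes followed the larger group, with 9 of 26 lower and 5 higher (3 higher without day 28 array 4). Psat1, an enzyme of serine synthesis, read 7.84, 7.74, 7.50 and 7.72 at day 28, against 10.77, 10.51 and 9.90 at day 10, a 6.48-fold fall (adjusted p = 4.02e-10). Slc7a5, a leucine transporter gene, fell 3.82-fold, and Atf4 itself 2.04-fold. Vldlr, a lipoprotein receptor gene, instead rose 3.12-fold. Among 21 heat shock and chaperone genes, 6 were called lower and 1 higher. Hspb1, a small heat shock protein gene, fell 3.42-fold to 11.52, 11.83, 11.58 and 11.59 at day 28, against 13.29, 13.21 and 13.71 at day 10.

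Of 20 oxidant defence genes, 6 were called lower and 4 higher. Hmox1, Gclm and Srxn1 fell by 2.38, 1.68 and 1.16. The mitochondrial dismutase gene Sod2 rose by 1.02, and the glutathione transferase genes Gsta3 and Gstm1 by 1.73 and 1.06. Muscle atrophy and autophagy genes were called higher in 9 of 19 and lower in none. Trim63, the ubiquitin ligase MuRF1, rose by 1.94, and Map1lc3b, the autophagosome protein LC3B, by 1.27. For Map1lc3b the day 28 arrays read 10.83, 10.88, 10.82 and 10.86, against 9.56, 9.64 and 9.53 at day 10, and all lay just below the lowest control, 10.95. Genes of the p53 and DNA damage response were mixed, with 6 of 28 higher and 5 lower. Gadd45g, a stress sensor gene, fell 6.77-fold, and Cdkn1a, the cell cycle inhibitor p21, fell 4.18-fold with a wide day 28 spread of 8.88, 9.31, 9.65 and 10.24, against 11.70, 11.85 and 11.19 at day 10. Ccng1, Sesn1 and Rrm2b, also p53 targets, rose by 1.00, 1.56 and 0.98. The lower count there was 2 without day 10 array 2 or day 28 array 3, and 3 without day 10 array 1 or day 28 array 1.

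Cholesterol synthesis genes were called lower in 11 of 17 and higher in none (median -0.55). Sqle, squalene epoxidase, read 7.08, 7.14, 7.11 and 7.19 at day 28, against 9.52, 9.34 and 9.53 at day 10, a 5.04-fold fall (adjusted p = 3.85e-10) with no overlap. Msmo1, a sterol demethylase gene, read 8.98, 8.57, 8.92 and 8.97 at day 28, against 10.87, 10.78 and 10.46 at day 10, a 3.59-fold fall. Hmgcs1 and Fdps, earlier steps of the pathway, fell 2.78-fold and 2.52-fold. All 15 genes of this list with a promoter in the table held CCAAT, against 41.1% of all genes, and the Msmo1 window is shown with its 3 matches in capitals.
Msmo1 promoter, chr8:64733579-64733778, minus strand: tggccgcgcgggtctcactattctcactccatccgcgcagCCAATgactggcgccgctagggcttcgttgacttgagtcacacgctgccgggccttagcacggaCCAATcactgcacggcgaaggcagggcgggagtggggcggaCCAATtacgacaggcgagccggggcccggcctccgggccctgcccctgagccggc

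Endothelial and angiogenic genes were called mainly in the higher direction at day 28, while smooth muscle and pericyte markers went both ways. Of 17 endothelial markers, 9 were called higher and none lower (median 0.48), with a summed intensity of 44210 to 50370 at day 28 and 26310 to 32310 at day 10. Aqp1, a water channel gene of capillaries, read 13.35, 13.24, 13.18 and 13.65 at day 28, against 11.14, 11.44 and 12.02 at day 10, a 3.54-fold rise (adjusted p = 1.39e-08). Pecam1 and Cdh5, junction proteins that define the cell type, rose by 0.63 and 0.64, while Vwf gave 0.13 and passed no test (adjusted p = 0.609). Among 24 angiogenic growth factor genes and receptors, 11 were called higher and 1 lower. Vegfb, a growth factor gene abundant in heart muscle, rose 3.03-fold, and the receptor genes Aplnr and Tek by 1.67 and 0.87. Among smooth muscle and pericyte markers, 7 of 15 were called higher and 3 lower. The summed intensity of that list was lower at day 28, at 25580 to 26150 against 38890 to 44940 at day 10. Its mean log2 level was higher, at 9.20 to 9.32 against 8.92 to 9.01. Rgs5 and Notch3, both pericyte genes, rose by 1.50 and 0.70. The smooth muscle actin gene Acta2 fell by 1.56 and Des by 0.88. The pericyte markers Cspg4 and Higd1b gave 0.14 and 0.17 and were not called (adjusted p = 0.589 and 0.562), and Mcam was lower by 0.59 (adjusted p = 0.0216), a call lost without day 10 array 1 (adjusted p = 0.146) or day 28 array 2 (0.0515). Ventricular cardiomyocyte markers were called higher in 8 of 14 and lower in 1, with a summed intensity of 369000 to 381300 at day 28 and 288500 to 328100 at day 10. Their share in the rise of the metabolic genes was not tested. Some of these markers, such as Myh6, Ryr2 and Fabp3, also count in the sarcomere, calcium and fatty acid lists. Other lists share members too, such as Tek (endothelial and angiogenic) and Col1a1 (collagen and fibroblast). Adipocyte, erythroid, Schwann and epicardial marker lists had at most 1 member called in either direction.

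Clock genes differed between the groups in both phases. Of 15 tested, 10 were called higher and 3 lower. Dbp, a clock output factor gene, read 12.75, 12.77, 12.74 and 12.41 at day 28, against 9.83, 9.52 and 9.79 at day 10, a 7.76-fold rise (adjusted p = 2.08e-07). Ciart and Nr1d2, repressors of the clock, rose 4.49-fold and 3.87-fold. The genes of the opposite phase fell: Arntl, the activator BMAL1, read 6.82, 6.79, 6.83 and 6.86 at day 28, against 8.04, 8.23 and 8.49 at day 10 (2.70-fold, adjusted p = 8.86e-05). Controls covered both ends, at 7.85, 8.26, 7.69, 6.96 and 6.74. Nfil3, a repressor in phase with Arntl, fell 3.47-fold. The labels give a light cycle but no hour of collection, and the part of the clock in other differences was not tested. Without day 10 array 3 the higher count was 6. Ciart is shown because its window holds 3 copies of the E-box CACGTG, the letters that BMAL1 and its partner bind, in capitals.
Ciart promoter, chr3:95882229-95882428, minus strand: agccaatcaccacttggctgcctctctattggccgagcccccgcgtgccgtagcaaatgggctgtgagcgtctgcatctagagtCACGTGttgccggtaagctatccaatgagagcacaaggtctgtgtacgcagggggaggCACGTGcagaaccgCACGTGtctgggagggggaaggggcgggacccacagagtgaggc
Of 16 clock genes with a promoter, 31.2% held CACGTG, against 8.09% of all genes. Glucocorticoid-responsive genes had 7 of 17 called higher (4 without day 10 array 3) and 5 lower. Klf9 and Tsc22d3, direct targets of the hormone receptor, rose by 1.39 and 1.08, while Fkbp5, also a direct target, fell by 1.13 (adjusted p = 0.00243). Angptl4, a lipase inhibitor gene, fell by 2.17.

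Several of the largest rises belonged to none of the lists. Inmt, which methylates indole amines, rose furthest, at 10.30, 11.97, 12.57 and 11.94 on the day 28 arrays, against 6.66, 6.79 and 6.58 at day 10, a 32.5-fold difference of 5.02 ± 0.43 (SE, adjusted p = 6e-09). The controls read 8.46 to 10.53, above every day 10 array, with the highest of them above day 28 array 1. Day 28 stood above control by 2.57 (adjusted p = 0.000367). Against controls 4 and 5 alone the day 28 difference was 1.86 and not called (adjusted p = 0.154). Ces1d, a carboxylesterase that releases fatty acids from stored fat, read 12.88, 12.45, 12.81 and 12.78 at day 28, against 8.40, 8.40 and 9.24 at day 10, a 16.6-fold rise that ended within or just below the control range of 12.48 to 13.12. Fndc5, which encodes the precursor of irisin, rose 7.38-fold, Txlnb, a muscle taxilin gene, 7.31-fold, and Ank1, a membrane skeleton anchor gene, 6.68-fold. Art1, a muscle ADP-ribosyltransferase gene, rose 6.99-fold, Fn3k, which repairs glycated proteins, 6.90-fold, and Pxmp2, a peroxisomal membrane channel gene, 5.93-fold. Ttll1, a tubulin-modifying enzyme gene, rose 7.65-fold, Asb11, a ubiquitin ligase adaptor gene, 5.99-fold, Igsf1 6.26-fold and Tcea3, a transcription elongation factor gene, 5.95-fold. In each of these the day 28 arrays lay above all day 10 arrays. The genes were picked by the size of a called rise, so that separation is no further support. Among the largest falls outside the lists, Plac8 read 7.41, 7.44, 7.62 and 7.47 at day 28, against 11.98, 9.67 and 10.99 at day 10. Its fall was 10.5-fold, and on the log2 scale -4.00 without day 10 array 2, the low one. Stfa1, a protease inhibitor gene of neutrophils, fell 8.98-fold, with day 28 arrays 3 and 4 (7.89 and 7.61) above arrays 1 and 2 (6.38 and 6.08).

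A last set of genes lay at day 28 away from the control level. Immediate early genes, which answer a stimulus within minutes, were called higher at day 28 than in control in 15 of 23 and lower in none (median 0.85), against a background of 2.09% of genes called, 1.33% higher and 0.757% lower. Against controls 4 and 5 alone 8 were called higher. Compared with day 10, 7 were called higher and 2 lower. Fosb read 10.03, 10.38, 11.30 and 11.55 at day 28, against 8.56, 9.24 and 8.41 at day 10 and 6.90, 6.91, 7.35, 8.77 and 6.73 in controls. Day 28 lay above both groups without overlap, by 2.07 from day 10 (adjusted p = 0.000139) and by 3.48 from control (adjusted p = 1.26e-06). Klf2 and Klf4, factors that vessel walls raise under flow, rose by 1.91 and 1.62 from day 10. Fos, Junb and Egr1, picked out after their values were seen, were not called between day 28 and day 10 (differences of -0.23, 0.43 and 0.70). All of these 3 stood above control at day 28, by 3.56, 3.45 and 3.45, and at day 10, by 3.80, 3.02 and 2.75. At day 10, 10 of the 23 genes of the list were called higher than in control and 2 lower, against 18.2% and 19.2% of all genes. Both comparisons use the same controls.

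Beyond both other groups lay 5 further genes that led by size. Ccn1, a matricellular gene induced by stretch, read 11.84, 12.23, 11.96 and 11.45 at day 28, against 10.55, 10.44 and 10.71 at day 10 and 9.21, 9.06, 8.90, 10.27 and 8.85 in controls. It was higher by 1.31 than at day 10 and by 2.62 than in control (adjusted p = 0.00087 and 1.26e-06), and by 2.31 against controls 4 and 5 alone (adjusted p = 0.00263). Errfi1, a brake on growth factor receptors, was above day 10 by 1.84 and control by 2.68. Nrarp, a target of Notch signalling, Id3, a target of bone morphogenetic proteins, and Grasp, a scaffold protein gene, were above control by 1.11, 1.08 and 0.96. For Nrarp the call against controls 4 and 5 alone was lost (adjusted p = 0.0532). Below both groups lay Lrrfip1, Ap1b1, Flii, Dgkz, Vcl and Ubtd1, by 0.47 to 0.72 from control as an absolute difference. Vcl, which encodes the adhesion protein vinculin, read 11.36, 11.48, 11.30 and 11.43 at day 28, against 12.21, 12.57 and 12.48 at day 10 and 12.12, 11.94, 12.18, 11.71 and 11.61 in controls. Its difference was -1.03 from day 10 and -0.52 from control. None of these 6 was called against controls 4 and 5 alone. For Flii the call against day 10 was also lost, at an adjusted p of 0.0538, without day 10 array 2.

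Some inflammatory genes lay lower at day 28 than at day 10 but above control. Among the chemokine and cytokine lists, 8 of 25 and 6 of 28 were called higher at day 28 than in control and none lower, while 17 and 22 were not called, among them Ccl6 (7.43 at day 28 and 7.46 in control) and Ccl9 (9.92 and 9.77). Against controls 4 and 5 alone, 3 chemokine and 1 cytokine genes were called higher. Il1b, the cytokine interleukin 1 beta, read 10.20, 10.16, 11.92 and 10.71 at day 28, against 13.90, 13.44 and 12.70 at day 10 and 7.18, 6.80, 7.19, 9.40 and 7.48 in controls. It was 6.06-fold lower than at day 10 (adjusted p = 0.00039) and above control by 3.14 (adjusted p = 0.000343). Control 4 was the high control, as it was for Cd14, Ccl4 and Osm. Tnf read 7.94, 7.83, 9.30 and 7.72 at day 28, against 10.81, 10.40 and 9.28 at day 10, so that day 28 array 3 overlapped the lowest day 10 array. It fell 3.90-fold and stood above control by 1.75. Osm, a cytokine gene that drives cardiomyocyte remodelling, was above control by 1.75 and, against controls 4 and 5 alone, by 1.49 (adjusted p = 0.0409). Of Il1b, Cd14, Ccl4, Tnf, Ccl12 and Osm, only Osm kept its call against controls 4 and 5 alone. The neutrophil chemokine gene Cxcl1, picked out after its values were seen, was not called between day 28 and day 10 (1.25, adjusted p = 0.12) and was above control at day 28 by 5.04 (adjusted p = 3.49e-06).

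A few genes, not all of them metabolic, had risen only part of the way to the control level. Among 30 fatty acid genes 2 were called lower at day 28 than in control, and among 18 mitochondrial regulators 1. None of 33 complex I genes, 38 genes of complexes II to V or 23 genes of the tricarboxylic acid list was called lower. Over all genes the share called lower was 0.757%. Acot1, which cleaves fatty acyl-CoA, read 10.57, 9.70, 9.91 and 9.73 at day 28, against 8.46, 8.76 and 8.11 at day 10 and 11.13, 10.72, 11.59, 11.02 and 10.76 in controls. It was 2.90-fold above day 10 (adjusted p = 2.45e-06) and -1.07 from control (adjusted p = 0.00171). Ppargc1b, the coactivator PGC-1 beta, read 9.92, 9.68, 9.85 and 9.98 at day 28, against 8.67, 9.04 and 9.16 at day 10 and 11.16, 10.86, 11.50, 10.48 and 10.29 in controls. Its difference from control was -1.00 (adjusted p = 0.0355), and its rise of 0.90 from day 10 lost its call without day 10 array 1 (adjusted p = 0.0912). Wnk2, Tmem82, Whrn and Fah lay in the same position, between -0.81 and -1.01 from control. Fah, an enzyme of tyrosine breakdown, was 2.07-fold above day 10. Wnk2, a kinase gene of ion transport, was above day 10 by 0.81, a call lost without day 10 array 1 (adjusted p = 0.0734). Against controls 4 and 5 alone the differences of these 6 from control ran from -0.40 to -1.08 and none was called.

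**Figure D5:**
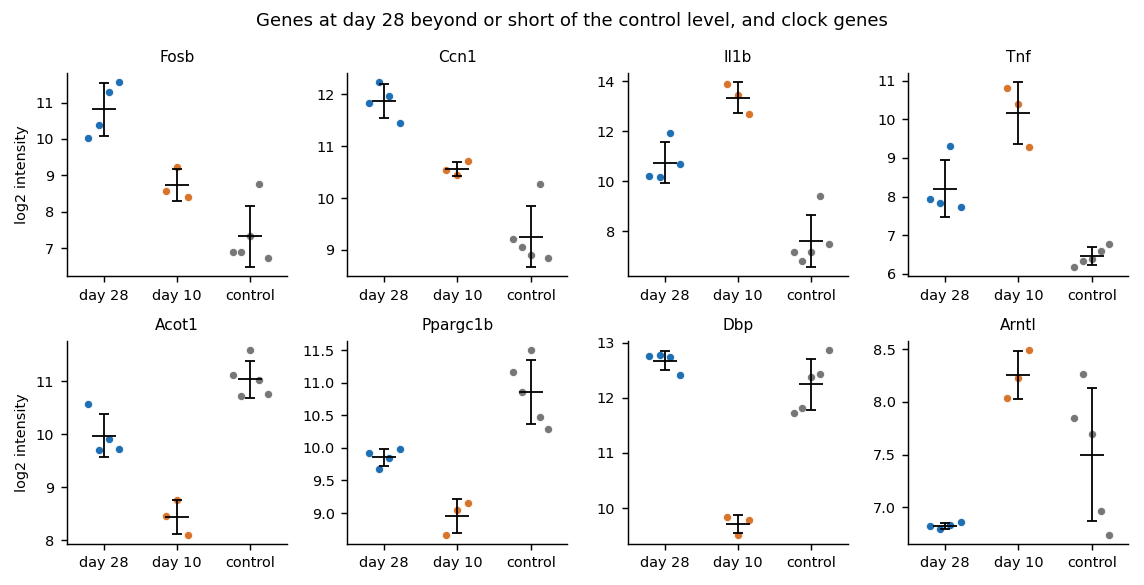
Log2 intensity on each array (points), with group mean and SD (black), of genes above control at day 28 (Fosb, Ccn1, Il1b, Tnf), below control at day 28 (Acot1, Ppargc1b) and of the clock genes Dbp and Arntl. Fosb and Ccn1 are highest at day 28, Il1b and Tnf lie between day 10 and control, and the controls of Arntl cover 6.74 to 8.26.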

How the data were processed

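Left ventricular RNA of 19 mouse samples was hybridised to Illumina bead arrays. The authors deposited intensities on a linear scale, between 116 and 57814, for 25697 probes. All columns hold the same sorted values, so the authors had quantile-normalized the arrays before they were deposited; the program is not given in the sources used here. The 38 columns of a second table, which carry codes matching no sample label, were not used, so no detection p-value was at hand and no probe could be called absent. The number of arrays limits the precision.

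Here the intensities were corrected with limma 3.58.1 in R 4.3.3 (normexp, offset 50) and taken to log2. Probes under the 25th percentile of mean intensity (162.9) were left out, and 19273 were tested. The fit (lmFit and eBayes) used all 19 arrays with a separate mean for each group, and p-values were adjusted by Benjamini-Hochberg over all probes tested, with calls at an adjusted p under 0.05. A fold is 2 to the power of the log2 difference and understates change near the floor or the top of the scale. The pipeline was tested on simulated data with planted changes. Of the 25697 probes, 23978 carry 1 gene symbol, none several and 1719 none, and 23962 have a gene ID in the RefSeq table. Each gene was read from its probe with the highest mean over all arrays. Summed marker levels are sums of corrected intensities. Promoter sequences come from RefSeq on GRCm38.p6, and both strands were searched.

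The members, the gene lists, the control subsets and the rule for named genes were chosen with earlier results of these data known. The rule took the 15 largest rises and falls, up to 4 called members of each list in each direction, up to 6 genes each way that lay beyond both other groups or only part of the way to control, and a fixed set of cardiac genes. Of that set, Postn lay under the filter, Esr1 was not called, and Spp1, Mki67 and Gdf15 are not analysed here. Alternatives changed the background correction, the filter, the arrays in the fit, the replicate number as a block, the variance model, array weights, the probe per gene and the normalization.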

Additional observations from a re-analysis of the deposited data

Results flagged for a closer look

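Within the 4 day 28 arrays and the 5 control arrays, single arrays lay far from the rest of their group for 28 of 418 gene and group pairs examined. Chance alone gives about 1 in 20 such gaps.

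Day 28 array 2 was high for Nppb (14.37, against 13.39 to 13.49 on the other day 28 arrays), Myh7 (8.56, against 7.34 to 7.54) and Myoz2 (14.10, against 13.93 to 13.94). The same array was low for Dlat (10.70), Ckm (13.68), Msmo1 (8.57), Ccl6 (6.88) and C1qb (10.65). Day 28 array 1 was low for Fbln1 (11.11, against 12.23 to 12.37), Dcn (14.87) and Tgfbi (10.37), all 3 of them matrix genes, and high for Tnni3 (12.86). Day 28 array 3 was high for Tnf (9.30, against 7.72 to 7.94) and low for Sdhb (14.07). Day 28 array 4 was low for Dbp (12.41, against 12.74 to 12.77), Pdia4 (8.30) and Lrrfip1 (9.37), and high for Ctss (8.16, against 7.58 to 7.60).

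Control 4 was the high control for Il1b (9.40, against 6.80 to 7.48), Osm (7.27, against 6.06 to 6.36), Ccn1 (10.27, against 8.85 to 9.21), Arg1 (6.66), Tnc (7.09), Id3 (9.24) and Fah (10.96), and the low one for Notch3 (8.73). Control 2 was high for Nppa (15.24, against 13.38 to 13.84), and control 5 for Bmp4 (8.87, against 8.26 to 8.43). What sets these arrays apart was not tested.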

How the results depend on the processing

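Between day 28 and day 10, the 17 alternatives called 4598 (without day 10 array 1) to 6709 (array weights) probes, against 5791 as reported, and the higher and lower counts stayed within 1.5 times. Of the 206 named genes called there, 196 were called the same way under all 17 alternatives, 10 lost the call under at least 1, and 0 turned round. Acta1, which was not called, gave 0.30, and leave-one-out values from -0.04 to 0.78.

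Day 28 against control was less stable. Against 347 probes (214 higher, 133 lower), array weights called 1583 (799 and 784), controls 1 to 3 alone 1874 (926 and 948), and controls 4 and 5 alone 39 (37 and 2). An offset of 16 called 222, with 72 lower, and a fit of the groups compared alone had 84 lower. Leaving out 1 array gave 105 to 772 probes, 83 to 382 higher and 22 to 390 lower. The cause was not tested. Day 10 against control gave 5148 to 7603.

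With the replicate number as a block, 5777 probes were called between day 28 and day 10, 816 (399 higher, 417 lower) between day 28 and control, and 6817 between day 10 and control. The deviations of same-numbered day 28 and day 10 arrays correlated at -0.06, -0.01 and -0.05, and those of differently numbered arrays at -0.07 to 0.09. No pairing by number was seen between these groups, and a batch that does not follow the number was not tested.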
